A study of Mus musculus with 6 samples.

Results

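Serinc1, Mfsd8, Nbr1, Gpr160 and Ist1 are 5 membrane, lysosome and autophagy genes, of 11138 named genes on the arrays. They were chosen by their measured values: each had a positive log2 ratio on all 3 arrays of 1-week smoke, a property shared by 15.4% of named genes. That sign alone does not single them out, since 34 of 178 other genes of related lists (19.1%) shared it. By 1-week mean, with the signs as deposited, Serinc1 ranked 4, Gpr160 14, Mfsd8 16, Nbr1 40 and Ist1 43 among named genes. The 5 are thus among the most extreme 1-week values. Their 1-week values are therefore given as a description, without a test. The 6-week values are not part of the sign rule, but the genes were grouped as raised early with earlier results of these data known. The 6-week values are thus not fully independent of the choice.

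The series compared RNA of endothelial cells sorted from mice exposed to environmental tobacco smoke with RNA of control mice, on 6 arrays of 2 channels each. Smoke for 6 weeks was paired with 1-week control on an array and its dye reversal, and with 6-week control on 1 further array. Smoke for 1 week was paired with control on 3 arrays, of which 1 had its dyes reversed. The control week of the 1-week arrays and the strain, sex and age of the mice are not given in the sources used here. Nor are the tissue, the marker used for sorting, and whether animals were pooled or separate. The p-values thus measure the spread between arrays, which may be technical, and precision is limited by there being 6 arrays. The arrays against 1-week control may share control RNA with the 1-week comparison.

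The proteins act at different stations of the membrane system. Endosomes sort receptors and lipids, the ESCRT machinery buds vesicles into them and cuts membrane necks, and lysosomes digest what endosomes and autophagosomes deliver. Selective autophagy adds receptors that tie labelled cargo to the growing autophagosome. In endothelium these routes handle receptors, lipoproteins and damaged organelles. Serinc1 sits in membranes and is linked to the use of serine for phosphatidylserine and sphingolipids. Mfsd8, also called Cln7, is a transporter-like protein of the lysosomal membrane whose loss in humans causes a form of neuronal ceroid lipofuscinosis. Nbr1 is an autophagy receptor that binds ubiquitin and proteins of the LC3 family. Ist1 regulates the ESCRT machinery and the ATPase Vps4. Gpr160 is an orphan receptor of the G protein-coupled family, and nothing in these data places it in the endolysosomal system.

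Each value below is a log2 ratio, where 1 means a 2-fold difference, averaged over the 2 spots of the gene and centred on the array's median. Neither the files nor the labels name the numerator of the ratio. Channel 1 held the smoke sample on every array, so a positive value is read as likely higher after smoke, and all arrays keep the sign with which they were deposited. It is not stated whether the authors turned the sign of the 2 dye-reversed arrays. Across named genes, pairs of arrays correlated between r = -0.048 and r = 0.27. The highest value was that of the 2 dye-reversed arrays with each other, whereas the 6-week array and its own dye reversal correlated at r = -0.030. Genes are not independent replicates. A fit of the 6 arrays with the dye orientation as a term gave 6-week means of 0.72 for Serinc1, 0.31 for Mfsd8, 0.45 for Nbr1, -0.23 for Gpr160 and -0.22 for Ist1, and without that term the 6 arrays gave 0.72, 0.32, 0.43, -0.18 and -0.15 in the same order of genes. That fit keeps the deposited signs and does not settle them.

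Among the 5 genes, Serinc1 had the largest mean log ratio at 6 weeks. It stood at 0.60 and, with reversed dyes, 0.65 on the 6-week arrays against 1-week control, and at 0.91 against 6-week control. On the 1-week arrays it stood at 1.86 with reversed dyes, 1.79 and 1.89. All 6 values were positive, and no 6-week value reached the 1-week range. The 6-week mean was 0.77 ± 0.19 (SE, n = 2 replicates, the dye swap averaged), a fold of 1.71, and the 1-week mean was 1.85 ± 0.15 (SE, n = 3), a fold of 3.60. The labels do not say which array the 1-week dye reversal repeats, so that n at 1 week may be 2. Averaged with replicate 2 or replicate 3, it gave 1.86 ± 0.20 or 1.83 ± 0.19 for Serinc1. At 6 weeks 41.7% of the 1-week log ratio was left with the signs as deposited, 24.0% with the 6-week dye reversal turned and 73.0% with both dye reversals turned. Such shares divide by the 1-week values that chose the genes, so they are a description and nothing is read from them.

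Mfsd8 was lower at 6 weeks on every array while remaining positive. Its 6-week values were 0.39 and, with reversed dyes, 0.29 against 1-week control, and 0.29 against 6-week control. Its 1-week values were 1.42 with reversed dyes, 1.83 and 1.32. The 6-week values lay closer together than those at 1 week, and none of them came near the 1-week range. The means were 0.31 ± 0.21 at 6 weeks and 1.53 ± 0.17 at 1 week, so 20.6% of the log ratio was left with the signs as deposited, 11.1% with the 6-week dye reversal turned and 29.4% with both turned.

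Nbr1 gave different 6-week values against controls labelled 1 week and 6 weeks. Against 1-week control it stood at 0.64 and, with reversed dyes, 0.70, and against 6-week control at -0.049. Its 1-week values were 1.06 with reversed dyes, 1.30 and 1.16. The 6-week values again lay below all of those at 1 week, and only the pair against 1-week control lay above 0. The means were 0.31 ± 0.24 at 6 weeks and 1.17 ± 0.19 at 1 week. With a single array against 6-week control, the week of the control and that array cannot be told apart.

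Gpr160 was the only one of the 5 with negative values on all 3 arrays at 6 weeks. These were -0.095 and, with reversed dyes, -0.28 against 1-week control, and -0.16 against 6-week control. At 1 week it stood at 1.26 with reversed dyes, 1.87 and 1.59. The gap between the lowest 1-week value and the highest 6-week value was 1.36, the widest of the 5 genes. The means were -0.18 ± 0.22 at 6 weeks and 1.57 ± 0.18 at 1 week. The difference was -1.75 ± 0.28 with the signs as deposited and -0.77 ± 0.99 with both dye reversals turned.

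Ist1 lay on both sides of 0 at 6 weeks. Against 1-week control it stood at -0.13 and, with reversed dyes, at -0.53, and against 6-week control at 0.23. At 1 week it stood at 0.96 with reversed dyes, 1.08 and 1.47. Its 6-week values thus scattered around no difference, with the widest range of the 5 genes, slightly above that of Nbr1, and the highest of them lay 0.73 below the lowest 1-week value. The means were -0.052 ± 0.24 at 6 weeks and 1.17 ± 0.20 at 1 week.

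**Figure D1:**
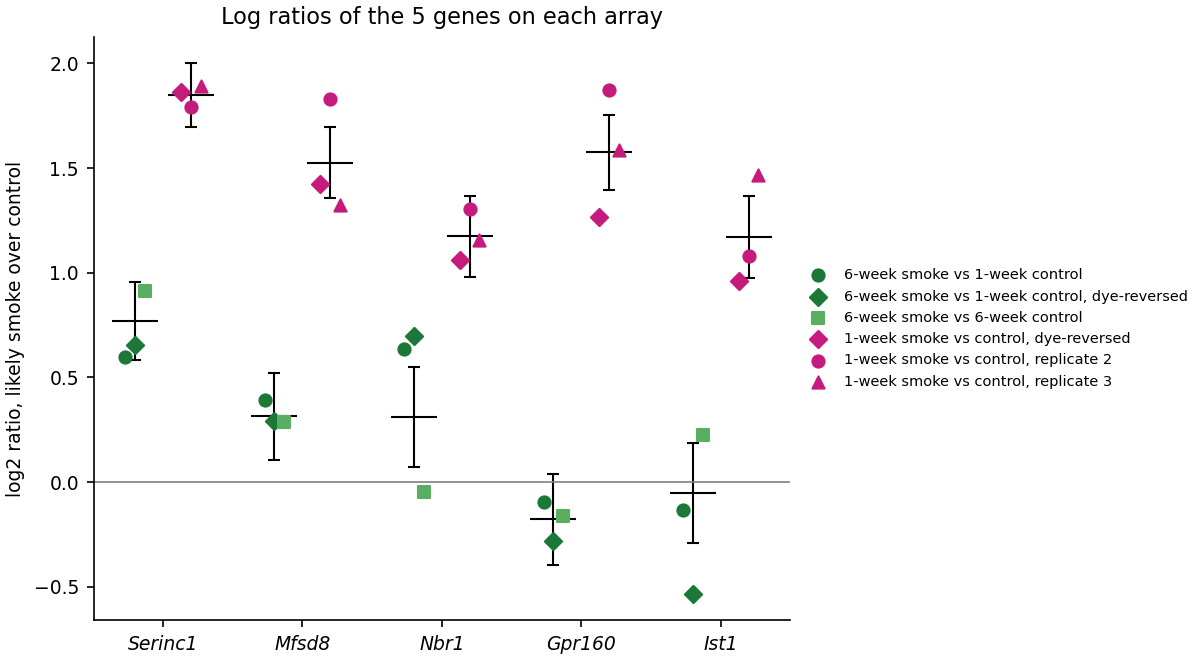
Log2 ratio of each gene on each of the 6 arrays, with 6-week arrays (green) left of 1-week arrays (magenta); diamonds are dye-reversed arrays, black bars are the mean of each exposure time and whiskers the SE from the fit. For every gene the 6-week values lie below the 1-week values, from Serinc1, which remains at 0.60 to 0.91, to Gpr160, which lies at -0.28 to -0.095.

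By mean log ratio, with the signs as deposited, the order at 6 weeks was Serinc1, Mfsd8, Nbr1, Ist1 and Gpr160, and with the 6-week or both dye reversals turned it was Serinc1, Ist1, Mfsd8, Gpr160 and Nbr1. As deposited, Mfsd8 and Nbr1 were 0.31 each and did not differ beyond their errors, and neither did the neighbours Ist1 and Gpr160. At 1 week the order was Serinc1, Gpr160, Mfsd8, Nbr1 and Ist1. The ranges of the 1-week arrays overlapped for every pair of these genes, except Serinc1 with Nbr1 or Ist1 and Mfsd8 with Nbr1. With both dye reversals turned the 1-week order was Gpr160, Serinc1, Mfsd8, Ist1 and Nbr1. The median of the 5 genes was 0.31 at 6 weeks and 1.53 at 1 week, while that of all named genes was -0.0053 and -0.0064. The 6-week minus 1-week differences of the other 4 genes were -1.08 for Serinc1, -1.21 for Mfsd8, -0.86 for Nbr1 and -1.22 for Ist1. With the signs as deposited, every 1-week array lay above every 6-week array for all 5 genes and for 5.87% of named genes. High 1-week values chose the genes. Nothing is therefore read from that count, the differences or the shares left at 6 weeks, and no p-value is given for them.

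**Figure D2:**
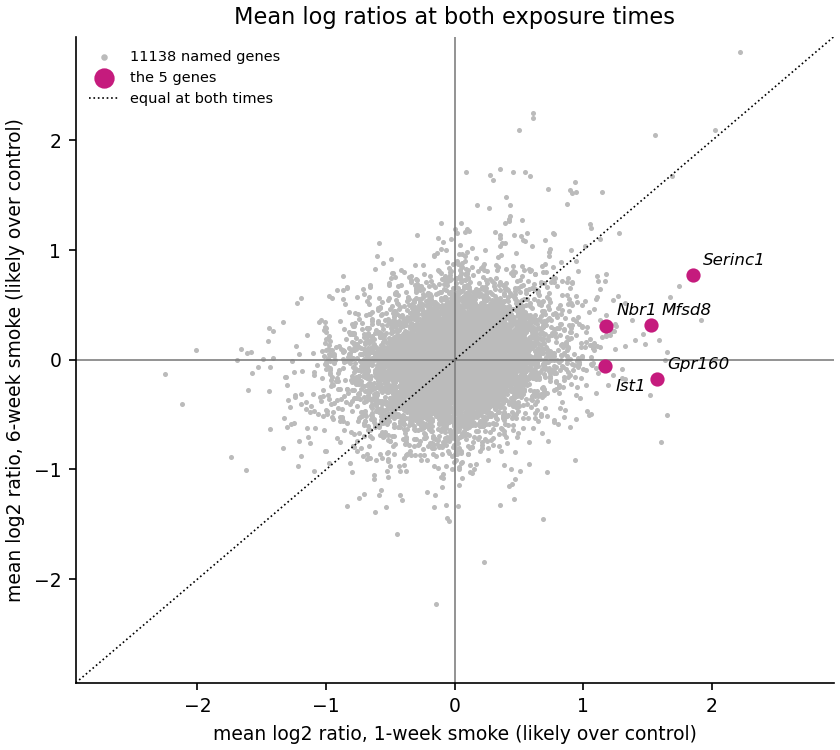
Mean log2 ratio at 6 weeks (vertical) against that at 1 week (horizontal) for the 11138 named genes (grey) and the 5 genes (magenta), with the line of equal values dotted. The 5 genes lie at the right, between 1.17 and 1.85 at 1 week, and below the line, between -0.18 and 0.77 at 6 weeks.

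None of the 5 genes passed the test of 6-week smoke against control. This comparison asks whether the genes differed between 6-week smoke and control. It does not test the 1-week values. Its 2 replicates are unlike comparisons: the averaged pair against 1-week control, and the array against 6-week control. Any disagreement between them enters the error of the test, and the pair against 1-week control holds a difference in weeks besides smoke. In limma's fit with Benjamini-Hochberg adjustment over 19242 tests, 0% were called at an adjusted p under 0.05, with 792 at an unadjusted p under 0.05. A test without variance moderation called 5, and robust limma called 0. Serinc1 came closest, with an unadjusted p of 0.00759 and a 95% interval of 0.30 to 1.24 that lies above 0 with the signs as deposited. With the 6-week dye reversal turned its mean was 0.44 ± 0.27 and the interval, -0.23 to 1.12, included 0. As deposited its adjusted p was 1, and 2.18% of all tests were positive at an unadjusted p under 0.05. The intervals of the others included 0 and were wide: -0.21 to 0.84 for Mfsd8, -0.29 to 0.91 for Nbr1, -0.72 to 0.37 for Gpr160 and -0.66 to 0.55 for Ist1. A 6-week difference of up to about these bounds is therefore not shown to be absent.

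At 6 weeks, 2 of the 5 genes, Serinc1 and Mfsd8, were positive on all 3 arrays, against 11.7% of named genes. Gpr160 alone was negative on all 3, against 13%. Serinc1 and Mfsd8 were thereby positive on all 6 arrays, as were 3.24% of named genes. A separate fit was restricted to 5625 genes with agreeing spots, meaning a spot gap under 1 log2 unit on each of the 6 arrays. There 0.213% passed at 6 weeks, 12 genes, and none of the 5 was among them: the adjusted p was 0.221 for Serinc1, 0.781 for Mfsd8, 0.836 for Nbr1, 0.942 for Gpr160 and 0.984 for Ist1. With the 6-week dye reversal turned, the 6-week means became 0.44 for Serinc1, 0.17 for Mfsd8, -0.041 for Nbr1, -0.035 for Gpr160 and 0.21 for Ist1, so the signs of Nbr1 and Ist1 depend on that choice.

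The 1-week sizes also rest on the sign of 1 array. With both dye reversals turned, the 1-week means became 0.61 for Serinc1, 0.58 for Mfsd8, 0.47 for Nbr1, 0.73 for Gpr160 and 0.53 for Ist1. As deposited, the dye-reversed 1-week array gave values between 0.96 and 1.86 for the 5 genes, the other 1-week arrays between 1.08 and 1.89. The choice required this array to be positive as deposited, so that likeness says nothing of its sign. With this array turned, none of the 5 genes would be positive on every 1-week array. In the fit of genes with agreeing spots 1.81% passed at 1 week. No result of that fit is read for the 5 genes, because their 1-week values chose them.

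The spots of the 5 genes repeated each other closely. The largest difference between the 2 spots of a gene on 1 array was 0.25 for Serinc1, 0.57 for Mfsd8, 0.26 for Nbr1, 0.34 for Gpr160 and 0.45 for Ist1, where the median named gene had 0.99. Mfsd8 showed its largest gap on the 6-week array against 1-week control, with 0.11 and 0.68. Ist1 showed its own on the array against 6-week control, where the first spot gave 0.45 and the second 0.00. At 1 week the spots of Serinc1 gave 1.89 and 1.83 with reversed dyes, 1.81 and 1.78 on replicate 2, and 1.83 and 1.95 on replicate 3. Spots share an array and measure technical spread alone.

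**Figure D3:**
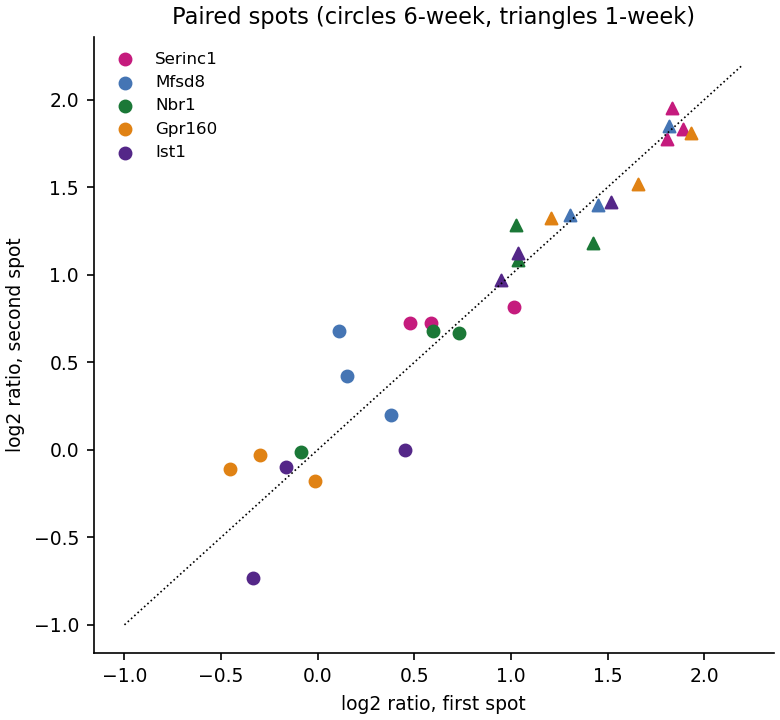
Log2 ratio of the second spot against the first spot of each gene on each array, with circles for 6-week and triangles for 1-week arrays and the line of equal values dotted. The 1-week points lie close to the line between 0.95 and 1.95, and the widest gap is that of Mfsd8 at 6 weeks, 0.57.

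Promoter sequences were taken from RefSeq (build GRCm38.p6), which matched 4 of the 5 genes, with 2 start sites for Nbr1. The 250 bases before the start site of Mfsd8, Gpr160 and Ist1 are shown because each holds 3 copies of GCGTG, the core of the xenobiotic response element bound by the aryl hydrocarbon receptor, a sensor of smoke constituents. Capitals mark GCGTG or, on the other strand, CACGC.
Mfsd8 promoter, chr3:40846855-40847104, minus strand: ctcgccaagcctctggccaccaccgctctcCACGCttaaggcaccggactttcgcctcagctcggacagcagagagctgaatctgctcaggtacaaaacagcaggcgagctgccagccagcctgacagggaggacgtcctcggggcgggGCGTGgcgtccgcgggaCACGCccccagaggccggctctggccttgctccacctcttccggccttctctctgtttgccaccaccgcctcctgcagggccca
Gpr160 promoter, chr3:30855700-30855949, plus strand: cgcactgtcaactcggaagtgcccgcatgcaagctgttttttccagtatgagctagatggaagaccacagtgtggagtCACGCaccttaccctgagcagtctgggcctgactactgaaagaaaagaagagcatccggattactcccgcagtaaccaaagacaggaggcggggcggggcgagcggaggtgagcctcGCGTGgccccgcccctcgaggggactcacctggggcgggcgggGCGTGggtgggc
Ist1 promoter, chr8:109693295-109693544, minus strand: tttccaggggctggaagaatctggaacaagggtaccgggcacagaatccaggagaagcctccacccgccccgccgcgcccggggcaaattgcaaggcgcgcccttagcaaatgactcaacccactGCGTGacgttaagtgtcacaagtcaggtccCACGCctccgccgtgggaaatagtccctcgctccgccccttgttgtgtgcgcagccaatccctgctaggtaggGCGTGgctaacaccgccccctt

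Of all 32851 promoter windows of that length, 28.2% held at least 1 copy of GCGTG on either strand and 2.77% held 3 or more. The base composition moves with this: the 3 promoters had 67.2%, 62.4% and 62% G and C in the order printed, against a median of 52.4%, and among the 6141 windows of 60 to under 70% G and C the shares were 51.2% and 6.76%. Neither window of Nbr1 held the motif. The antioxidant response core TGACNNNGC occurred in Gpr160 (10.2% of all windows), and GGAAGT, an ETS-like core, also in Gpr160 (19.7%). The core of the lysosomal CLEAR element, TCACGTG, and the E-box within it, CACGTG, occurred in none of the 5 windows (3.13% and 6.02% of all windows). These are matches of letters, with no measure of binding.

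Values of the close relatives of Serinc1 and Mfsd8 were mixed. Of the serinc family, Serinc3 was also measured: it stood at 0.37, 0.34 with reversed dyes and 1.72 against 6-week control on the 6-week arrays, and at 0.96 with reversed dyes, 0.91 and 1.17 on the 1-week arrays. All 6 values were positive, with means of 1.04 ± 0.35 at 6 weeks and 1.01 ± 0.28 at 1 week, and the 6-week mean leans on the array against 6-week control. Its adjusted p was 1 at 6 weeks and 0.663 at 1 week. Of 7 other measured members of the major facilitator domain family, 4 were positive and 3 negative at either time. Mfsd14a, the only one of them with one sign on all 3 arrays at 6 weeks, averaged 0.25 ± 0.18 at 6 weeks and 0.0084 ± 0.14 at 1 week. Mfsd2a, a lipid transporter of brain endothelium, stood at -0.038 ± 0.21 at 6 weeks and -0.32 ± 0.17 at 1 week.

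Genes of the wider endolysosomal and autophagy machinery lay on both sides of 0. Over 178 measured genes of 9 lists, without the 5 genes, the median log ratio was -0.038 at 6 weeks and -0.012 at 1 week. At 6 weeks 16 of them were positive on all 3 arrays (8.99%, against 11.7% of named genes) and 29 negative (16.3%, against 13%). At 1 week 34 were positive on all 3 arrays (19.1%, against 15.4%) and 39 negative (21.9%, against 15.6%). Limma called 0 of them over all tests at either time, where 0% of all tests were called at 1 week too, with 1280 at an unadjusted p under 0.05 and 0 by the test without moderation and by robust limma. Among the 90 with agreeing spots, 0 passed at 6 weeks and 3 passed at 1 week, 1 higher and 2 lower, where 1.81% of all such genes passed. At the edge of the sign rule that the 5 genes met, the lysosomal enzymes Gusb and Ppt1 lay just inside, with lowest 1-week values of 0.013 and 0.030. They are not among the 5, since that rule alone does not name the members. Ctsh and Tbk1 had an array at 0, just outside.

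The one higher gene was Rab5a, a GTPase of early endosomes. Being named for passing on the same 1-week arrays, it is like the 5 genes at 1 week by choice. It stood at -0.29 and, with reversed dyes, -0.50 against 1-week control and at 0.32 against 6-week control at 6 weeks, and at 1.13 with reversed dyes, 1.02 and 1.02 at 1 week. The means were -0.037 ± 0.23 at 6 weeks and 1.06 ± 0.19 at 1 week (limma adjusted p at 1 week 0.0241 among genes with agreeing spots and 0.455 over all tests). The lower genes were Gabarap, an LC3-family protein that autophagy receptors bind, with 0.092 ± 0.23 at 6 weeks and -0.87 ± 0.19 at 1 week (adjusted p = 0.0437), and Tecpr1, which helps autophagosomes fuse with lysosomes, with -0.54 ± 0.25 at 6 weeks and -0.95 ± 0.21 at 1 week (adjusted p = 0.0418).

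Partners of single genes were mixed. Vps4b, an ATPase that Ist1 regulates, stood at 0.39 ± 0.30 at 6 weeks and 0.79 ± 0.24 at 1 week, whereas Chmp2a, an ESCRT-III subunit, stood at -0.40 ± 0.29 at 6 weeks and -1.19 ± 0.24 at 1 week. Vps4a averaged -0.016 at 6 weeks and -0.28 at 1 week. The spots of Vps4b differed by up to 1.66 and those of Chmp2a by up to 2.34. Of the selective autophagy list, Gabarapl2 averaged -0.26 ± 0.18 at 6 weeks and -0.33 ± 0.14 at 1 week, and Sqstm1 -0.067 and -0.32. The LC3 gene Map1lc3a stood at -0.041 ± 0.25 at 6 weeks and 0.62 ± 0.20 at 1 week, and Map1lc3b at -0.038 ± 0.18 at 6 weeks and 0.33 ± 0.14 at 1 week. Lamp1, a main glycoprotein of the lysosomal membrane, was at 0.16 ± 0.22 at 6 weeks and 0.30 ± 0.18 at 1 week. Cln3, another protein of the lysosomal membrane linked to neuronal ceroid lipofuscinosis, was at -0.33 ± 0.18 at 6 weeks and -0.26 ± 0.15 at 1 week. None of these passed over all tests. The spots of Lamp1 differed by up to 1.39 and those of Map1lc3a by up to 1.25, beyond the limit of 1 log2 unit set for agreeing spots.

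**Figure D4:**
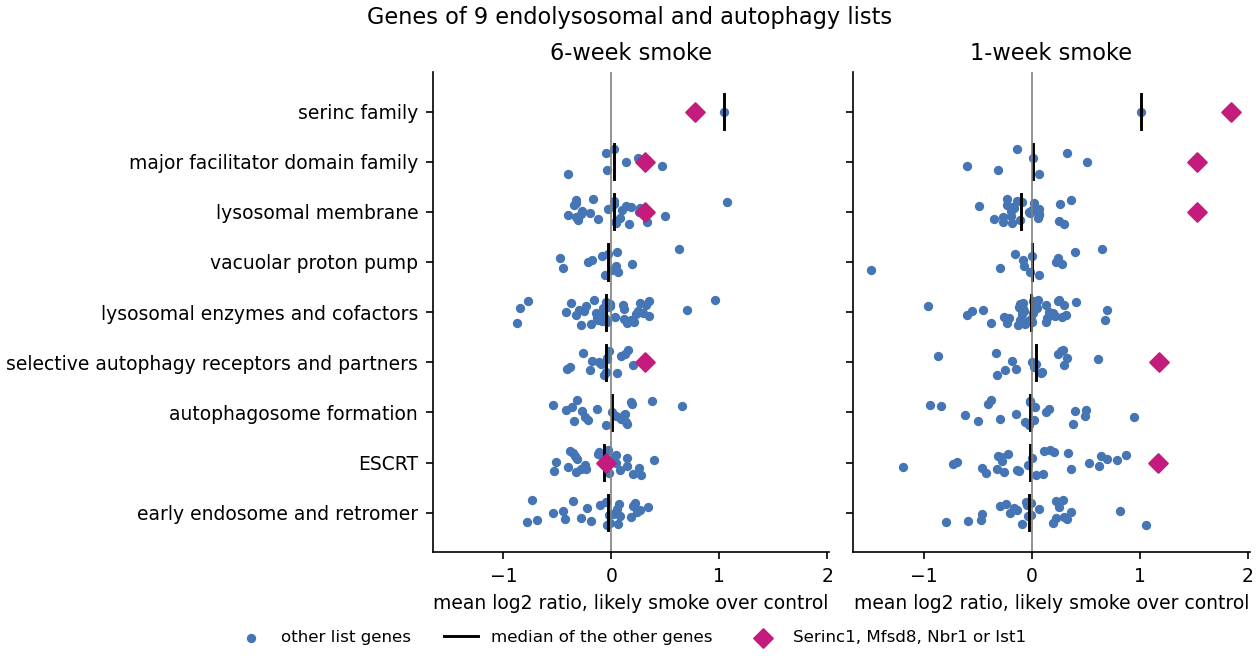
Mean log2 ratio of each measured gene (points) of 9 lists at 6 weeks (left) and 1 week (right), with the median of the genes other than the 5 as a black line; diamonds are Serinc1, Mfsd8, Nbr1 and Ist1 in their lists, Mfsd8 in both of its lists. The list medians lie near 0 in both panels, apart from the serinc family with its single other gene, Serinc3.

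By profile over the 6 arrays, the named genes closest to the mean of the 5 were BC005537, Apmap, Sh3bgrl, Hnrnpm and Oat, with root mean square differences of 0.26, 0.29, 0.30, 0.33 and 0.33 log2 units and Pearson correlations of 0.93, 0.94, 0.88, 0.91 and 0.89. The 5 genes themselves lay between 0.15 (Mfsd8) and 0.47 (Serinc1) from their own mean. Apmap, a membrane protein, averaged 0.12 ± 0.25 at 6 weeks and 1.32 ± 0.20 at 1 week. Hnrnpm, which binds pre-mRNA, averaged 0.15 ± 0.21 at 6 weeks and 1.48 ± 0.17 at 1 week. Oat, a mitochondrial enzyme of ornithine metabolism, averaged 0.54 ± 0.21 at 6 weeks and 1.23 ± 0.17 at 1 week.

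Ratios carry no level, so whether the cells expressed endothelial markers cannot be read from them. The median log ratio of 18 endothelial markers was -0.21 at 6 weeks and -0.097 at 1 week. The array medians of that list ran from -0.43 to 0.022. At 6 weeks 2 of the 18 were positive and 6 negative on all 3 arrays, against 11.7% and 13% of named genes. At 1 week 3 were positive and 7 negative, against 15.4% and 15.6%. Cldn5 was negative on all 6 arrays, with -0.90 ± 0.21 at 6 weeks and -0.68 ± 0.17 at 1 week. Ptprb was positive on all 3 arrays at 6 weeks, with 0.41 ± 0.25. At 6 weeks the median was -0.042 for 21 leukocyte genes, -0.14 for 12 fibroblast genes, 0.095 for 11 genes of smooth muscle and pericytes, -0.14 for 8 adipocyte genes, 0.033 for 9 epithelial genes and -0.21 for 5 red cell genes. At 1 week the medians of the same lists were -0.098, -0.27, -0.0048, 0.018, -0.095 and 0.0035. Of the 11 genes of smooth muscle and pericytes, 3 were positive and 0 negative on all 3 arrays at 6 weeks, and 2 positive and 1 negative at 1 week. Acta2 averaged 1.14 ± 0.26 at 6 weeks and 0.46 ± 0.21 at 1 week, and Kcnj8 1.07 ± 0.25 and 0.36 ± 0.20. Over all tests 0 endothelial, smooth muscle or pericyte genes passed at either time. Of the fibroblast genes 3 were higher and 9 lower at 6 weeks, and 5 higher and 7 lower at 1 week. Postn, a matrix protein, was positive on all 6 arrays, with 2.25 ± 0.48 at 6 weeks and 0.61 ± 0.39 at 1 week, and did not pass at 6 weeks (adjusted p = 0.0892 among genes with agreeing spots). Of the 7 fibroblast genes with agreeing spots, 2 passed at 1 week, Dpt and Gsn, both lower, where 1.81% of all such genes passed. Dpt averaged -0.53 ± 0.27 at 6 weeks and -1.33 ± 0.22 at 1 week, and Gsn -0.38 ± 0.30 at 6 weeks and -1.04 ± 0.24 at 1 week. Over all tests 0 of the 12 fibroblast genes passed at either time. A change in the share of a cell type and a change in RNA per cell cannot be told apart here, and the part of cell composition in the values of the 5 genes was not tested.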

How the data were processed

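The table deposited by the authors holds 1 log2 ratio for each of 32448 features on 6 arrays. Read from the values, 99.998% equal the log2 of a fold rounded to hundredths (tolerance 0.02), with column medians of 3e-07. Scanner, background correction, normalization and dyes are not given in the sources used here, and signal over background is unknown. The platform annotation gave 24344 features 1 gene symbol, 98 several and left 8006 unnamed; 24076 matched RefSeq genes by Entrez identifier. Spots were averaged into 11138 named genes, kept beside 8104 unnamed features, and each array was centred on its median. The 6-week array and its dye reversal were averaged, giving 5 replicates, fitted with lmFit and eBayes (limma 3.58.1, R 4.3.3), 1 coefficient per exposure time, two-sided, Benjamini-Hochberg over 19242 tests, threshold 0.05 (3 residual and 2.39 prior degrees of freedom). Signs were kept as deposited; turned arrays, a dye term, the 1-week dye reversal averaged with either other 1-week array, other scalings, spots, moderation and left-out arrays were alternatives. The code was tested on simulated data. The members, the lists and the alternatives were chosen with earlier results of these data known. Named besides the 5 genes were list genes that passed, up to 4 per list and time with the largest mean of one sign, family relatives, genes at the edge of the rule and the 5 nearest profiles; the text gives part of these.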

Additional observations from a re-analysis of the deposited data

Results flagged for a closer look

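Gpr160 was negative on every array of 6-week smoke and positive on every array of 1-week smoke, with a mean over arrays of -0.18 at 6 weeks and 1.57 at 1 week, a difference of -1.75; the difference was not tested, because the 1-week values chose the gene. Nbr1 was negative on the array against 6-week control (-0.049) and positive on both arrays against 1-week control (mean 0.67), a difference of -0.72. Ist1 did the opposite, with 0.23 against 6-week control and a mean of -0.33 against 1-week control, a difference of 0.56. These differences rest on a single array on one side and were not tested.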

How the results depend on the processing

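Over all tests the counts of passing genes at 6 weeks and at 1 week were 0 under every alternative that kept all features, except 5 at 6 weeks without variance moderation, and were 0 without each array in turn. Among genes with agreeing spots they were 12 at 6 weeks and 102 at 1 week, and with the 6-week dye reversal also turned (chosen after seeing the data) 0 and 78. No gene of the 5 passed at 6 weeks under any alternative; adjusted p ranged from 0.221 to 1 for Serinc1. The 6-week mean of Nbr1 became -0.041 with the 6-week or both dye reversals turned and -0.049 with the array against 6-week control alone. That of Ist1 became 0.21 with the 6-week or both dye reversals turned, 0.23 with the array against 6-week control alone and 0.10 from first spots, and ranged from -0.33 to 0.048 without each array in turn. The other 6-week means kept their sign. The 6-week minus 1-week differences stayed negative throughout. With both dye reversals turned they shrank to -0.16 for Serinc1, -0.41 for Mfsd8, -0.51 for Nbr1, -0.77 for Gpr160 and -0.31 for Ist1, since the high 1-week dye-reversed value is then negative. With the 6-week reversal turned they were -1.41 for Serinc1 and -1.21 for Nbr1, and quantile normalization gave -0.81 for Serinc1. For Nbr1 the difference was -1.22 with the array against 6-week control alone and -0.51 with those against 1-week control alone, and ranged from -0.92 to -0.51 without each array in turn; without the array against 6-week control its 6-week mean was 0.67. No paired analysis was possible across exposure times because the labels give no replicate numbers shared between groups; within arrays the ratio itself pairs smoke with control, and the 6-week array was averaged with its dye reversal. A dye term moved the 6-week mean to -0.22 for Ist1 and 0.45 for Nbr1 and changed no sign or call among the 5 genes. Without intensities, signal over background is unknown.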

Other observations

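With the signs as deposited, some endolysosomal genes held the same side of 0 on all 6 arrays, unlike Nbr1, Gpr160 and Ist1. With a dye-reversed array turned, none of those named here would. Of all named genes 3.24% were positive on all 6 arrays. The share negative on all 6 was not counted, and 13% were negative on all 3 arrays at 6 weeks and 15.6% at 1 week. Asah1, the lysosomal acid ceramidase, averaged 0.70 ± 0.21 at 6 weeks and 0.70 ± 0.17 at 1 week, and Atp6ap2, an accessory subunit of the proton pump, 0.63 ± 0.25 at 6 weeks and 0.65 ± 0.20 at 1 week. Rab4b, a GTPase of recycling endosomes, averaged -0.78 ± 0.18 at 6 weeks and -0.79 ± 0.15 at 1 week, and the lysosomal protease Ctsd -0.87 ± 0.32 at 6 weeks and -0.38 ± 0.26 at 1 week. None passed over all tests, and the spots of Rab4b differed by up to 2.29 log2 units and those of Asah1 by up to 1.24.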
